A study of Mus musculus with 4 samples.

Results

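A set of genes led by Tagln, Acta2 and Ccn2, most of them known from smooth muscle and pericytes, was measured in cultures labelled as microglia, the resident macrophages of the brain. The set has 10 of the 19938 genes measured: Tagln, Acta2, Myl9, Cnn1, Tpm1, Tpm2, Des, Pdgfrb, Rgs5 and Ccn2. Each has a single probe set that names it alone, and all 10 were kept. The genes were chosen by measured values, the opposite differences with lipopolysaccharide (LPS) that Tagln and Ccn2 show under the 2 genotype labels. The LPS differences given here therefore describe how the set was chosen, and no test was run on them.

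Smooth muscle cells and pericytes, together called mural cells, wrap blood vessels and carry actin and myosin filaments that narrow the vessel. Serum response factor (SRF) binds the CArG box, a short DNA element, in many contractile genes and switches them on when its coactivators enter the nucleus. Activated fibroblasts (myofibroblasts) use many of the same genes, so these genes alone do not name a mural cell. Microglia are not known for this programme.

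Each of 4 groups was measured on 1 Affymetrix Mouse Gene 1.0 ST array. The groups were wild type (WT, strain C57Bl) microglia without an agent, WT with LPS for 3 h, Bid-/- (knockout, KO) microglia without an agent, and Bid-/- with LPS for 3 h. LPS is a bacterial cell wall component sensed by TLR4, and Bid is a Bcl-2 family protein that links death receptors to mitochondria. The sources used here do not give the strain of the Bid-/- cells, the animals' age or sex, the number of animals or cultures, or how other brain cells were removed.

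All values are log2 expression from the authors' normalized table, and a difference of 1 on this scale is taken as 2-fold. The file does not state its log base, so folds rest on that reading. No group has a second array, so no value has a replicate error and no p-value is given. As a yardstick, the SD over genes of the difference between the 2 untreated arrays was 0.213, which also holds whatever the labels differ in. The SD over genes of the LPS difference was larger, 0.5 in WT and 0.491 under the Bid-/- label. For the LPS difference under the Bid-/- label minus that in WT it was 0.352. Low values are those under 4.26, the median 4-array mean of the probe sets, called the floor. Tagln, Acta2, Myl9, Tpm1, Tpm2, Pdgfrb and Ccn2 reached it on at least 1 array of every comparison (7 of 10). Cnn1, Des and Rgs5 were below it on all 4 arrays.

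The targeted gene did not follow the labels. Bid read 5.69 and 5.02 on the WT control and LPS arrays against 5.53 and 5.97 on those labelled Bid-/-. The sources used here do not say where its probes lie relative to the deletion, so this may check nothing. Uty, Kdm5d and Eif2s3y, all Y-linked, were 0.63 to 1.61 higher on the arrays labelled Bid-/-. Sex, background and culture therefore cannot be told apart from Bid in any comparison between the labels. Of 11 measured microglial markers, 10 or 11 were at the floor on each array. Their mean read from 8.02 to 8.57, against 4.36 to 4.54 for 12 skeletal and cardiac muscle markers. Reaching the floor alone says little, since 8 or 9 of those 12 muscle markers did so on each array. C1qa, a complement subunit, read from 11.21 to 11.64, Tmem119 from 5.12 to 5.83 and P2ry12, the lowest, from 3.90 to 4.38.

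Promoter sequence is shown first for the contractile genes, because the CArG box is the element their shared control is known by. RefSeq windows of GRCm38.p6, from 250 bases before to 50 after a start, were matched for 7 of the 10 genes; Tagln, Pdgfrb and Ccn2 had no entry. The CArG box was searched as CC, 6 bases that are A or T, then GG, which reads as the same pattern on either strand. It was then searched again with exactly 1 of the 6 core bases being C or G. The MCAT element bound by TEAD factors was searched as GGAATG on both strands. An exact CArG box lay in 1.63% of all 32851 windows, the form with 1 core base changed in 8.5% and GGAATG in 14.7%. The bases before the Acta2 start follow (minus strand, chr19:34255374-34255623), with its GGAATG and its 2 CArG boxes of the changed form in capitals.
Acta2: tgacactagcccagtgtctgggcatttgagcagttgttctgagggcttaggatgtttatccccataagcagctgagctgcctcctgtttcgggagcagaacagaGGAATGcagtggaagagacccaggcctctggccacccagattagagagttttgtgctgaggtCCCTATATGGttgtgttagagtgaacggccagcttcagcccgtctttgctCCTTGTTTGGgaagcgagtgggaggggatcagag

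Myl9 was the only 1 of the 7 matched genes whose window held an exact CArG box, and it held 1 of the changed form too. Tpm1 held a GGAATG. The stretches around these matches are given with the element in capitals, at chr2:156775293-156775322 and chr2:156775355-156775384 on the plus strand for Myl9 and at chr9:67049252-67049279 on the minus strand for Tpm1.
Myl9 exact CArG box: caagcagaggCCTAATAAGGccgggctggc
Myl9 changed CArG box: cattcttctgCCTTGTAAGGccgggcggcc
Tpm1 MCAT: gctgtcctaaGGAATGcggtcgcccccc
Cnn1, Tpm2, Des and Rgs5 had no match to these letters in these windows. A match describes the sequence and shows no binding.

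Among the thin filament and regulatory genes, Tagln varied most across the arrays. Tagln encodes transgelin (SM22-alpha), an actin-binding protein of smooth muscle. It read 5.10 on the WT control array, 6.70 on WT LPS, 5.76 on the control array labelled Bid-/- and 5.27 on the LPS array so labelled. The WT LPS array stood alone, 0.94 above the next highest array. The LPS difference, LPS minus control, was 1.60 in WT (3.03-fold higher) and -0.49 under the Bid-/- label. Of 11129 genes at the floor, 109 (0.979%) had an LPS difference in WT at least as high. Under the Bid-/- label, 15.8% of 10995 genes had an LPS difference at least as low. With LPS, Tagln was 2.69-fold lower under the Bid-/- label than in WT, and 6 of 11044 genes were at least as far below.

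Acta2 encodes smooth muscle alpha-actin, the filament protein that defines contractile smooth muscle and myofibroblasts. It read 6.26, 7.15, 6.75 and 6.25 in the same order of arrays. The WT LPS array was again the highest, and the LPS array labelled Bid-/- was level with the WT control array. Acta2 was 1.85-fold higher with LPS in WT and 1.41-fold lower on the arrays labelled Bid-/-. Of genes at the floor, 2.93% were at least as high in WT and 15.1% at least as low under the Bid-/- label. Its promoter letters, shown above, hold 2 changed CArG boxes.

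Myl9, the regulatory myosin light chain whose phosphorylation starts smooth muscle contraction, read 4.38, 5.00, 4.76 and 4.71. Its LPS difference was 0.62 in WT and -0.05 under the Bid-/- label, where it became 0.01 with an intensity trend removed. The WT control array was the low one, and the other 3 arrays lay within 0.29 of each other.

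The tropomyosins lie along the actin filament and gate myosin. Tpm1 read 6.81, 7.07, 6.84 and 6.64, a range of 0.43 over the 4 arrays. Its LPS differences of 0.26 in WT and -0.20 under the Bid-/- label were close to the 0.213 yardstick. Tpm2 read 4.08, 4.55, 4.35 and 4.07, and 2 of its 4 arrays were at the floor. The Tpm2 differences were 0.47 and -0.28. Both tropomyosins read highest on the WT LPS array and lowest on the Bid-/- labelled LPS array, where Tpm2 (4.07) was level with its WT control value (4.08).

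Cnn1, calponin 1, an actin-linked inhibitor of myosin ATPase, read 4.03, 4.15, 4.20 and 3.94. Des, desmin, the intermediate filament of muscle, read 3.30, 3.64, 3.62 and 3.62. Neither reached the floor, and the largest gap between arrays was 0.26 for Cnn1 and 0.34 for Des, so an order of the arrays should not be read from them.

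**Figure D1:**
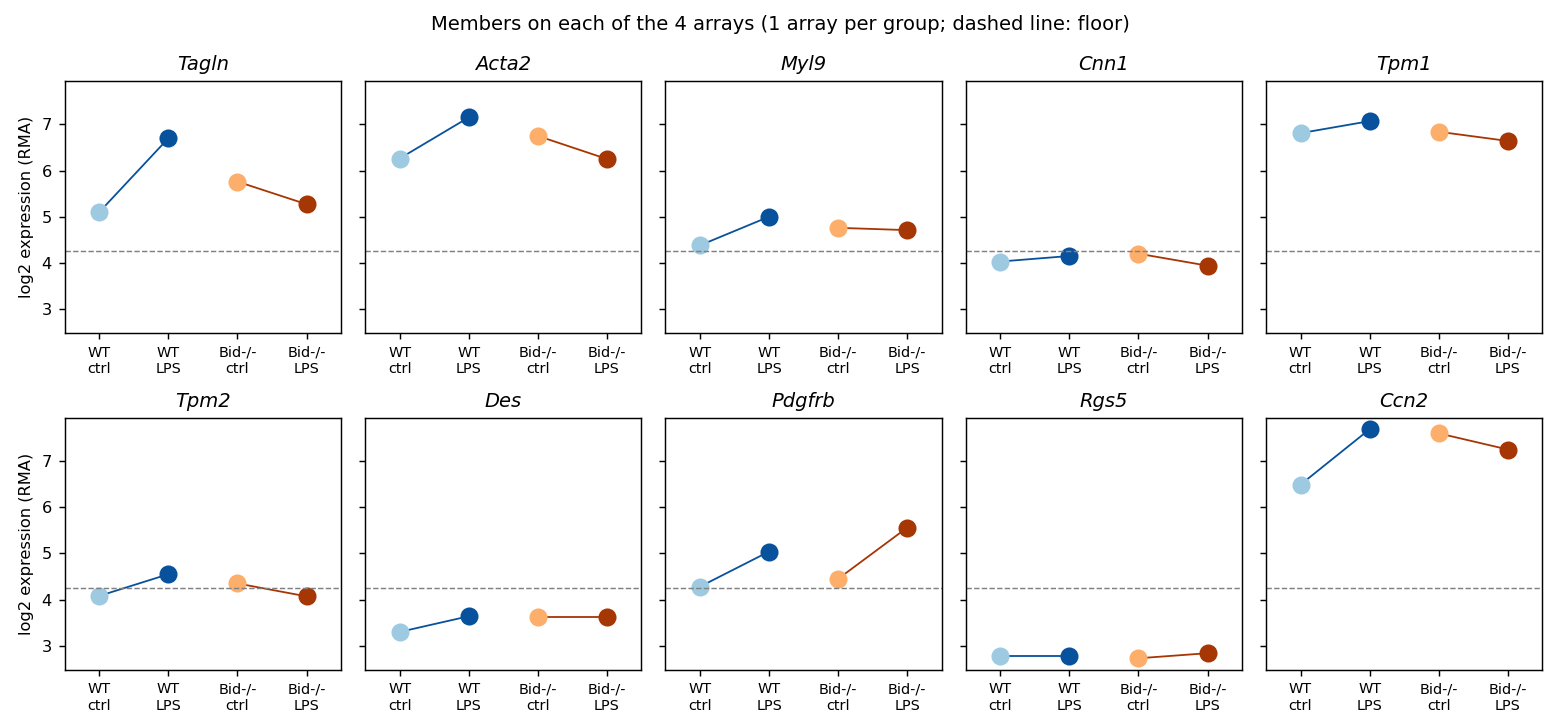
Log2 expression (vertical axis) of the 10 genes on each of the 4 arrays (horizontal axis); each point is 1 array, lines join control and LPS of one label, and the dashed line is the floor of 4.26. Tagln, Acta2 and Ccn2 are highest on the WT LPS array (6.70, 7.15 and 7.69), while Pdgfrb is highest on the LPS array labelled Bid-/- (5.56).

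The mural receptors and signalling genes did not share this pattern. Pdgfrb encodes the PDGF receptor beta, through which PDGF-B recruits pericytes, and it read 4.28, 5.04, 4.45 and 5.56. Both LPS arrays were above both control arrays, with LPS differences of 0.76 in WT and 1.11 under the Bid-/- label (2.16-fold). Pdgfrb was the only 1 of the 10 genes at least 2-fold higher with LPS under the Bid-/- label. Rgs5, a regulator of G protein signalling and a common pericyte marker, read 2.79, 2.79, 2.73 and 2.84. It stayed far below the floor, with 0.11 between its highest and lowest arrays, and its WT LPS difference of 0.00 read -0.05 after quantile normalization.

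Ccn2 (connective tissue growth factor) encodes a secreted matricellular protein and is a standard target of YAP, TEAD and TGF-beta signalling. It read 6.49, 7.69, 7.60 and 7.25. The WT control array was the low one, and the other 3 arrays lay within 0.44 of each other. Ccn2 was 2.30-fold higher with LPS in WT and 1.27-fold lower on the arrays labelled Bid-/-. Of genes at the floor, 1.74% were at least as high in WT and 26.2% at least as low under the Bid-/- label. Without LPS it was already 2.16-fold higher on the array labelled Bid-/- than in WT, and 30 of 10909 genes (0.275%) were at least as far above. The WT LPS and Bid-/- control arrays differed by 0.09, less than the yardstick. Ccn2 thus differed from Tagln, whose untreated Bid-/- array (5.76) lay 0.94 below the WT LPS array.

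Markers of fibroblasts, which can share a brain culture with microglia, differed between the arrays too. All 12 listed fibroblast markers were measured, and 12 of 12 were above 0 with LPS in WT (0.18 to 1.76), with a median of 0.645. Under the Bid-/- label 3 were above and 8 below 0 with LPS (-0.65 to 0.51), a split that became 6 and 6 after quantile normalization or removal of an intensity trend. Without LPS, 11 of 12 were higher on the Bid-/- labelled array than in WT (median 0.76). Their difference of response was below 0 for 12 of 12, with a median of -0.705. Of the markers at the floor, 11 of 11 were above 0 with LPS in WT, against 44.0% of all genes. Under the Bid-/- label 3 of 10 were above 0 with LPS, against 38.6%, and 6 below, against 60.1%. Without LPS 9 of 10 were higher on the Bid-/- labelled array, against 51.6%. The difference of response was below 0 for 11 of 11, against 49.1%. On the linear scale the 12 markers summed to 417 on the WT control array and 754 on WT LPS. They summed to 865 on the Bid-/- labelled control and 816 on the Bid-/- labelled LPS array. The 10 genes of the set summed to 403, 712, 577 and 492. Fbln1 was the marker neither above nor below 0 with LPS under the Bid-/- label, at 0.00. Dcn, decorin, read 5.94, 7.31, 8.09 and 7.44, and Col1a1 read 5.82, 6.58, 6.73 and 6.80. Lum reached at most 3.75, below the floor on all 4 arrays, and Sfrp4 reached the floor on the WT LPS array only. Both sums were lowest on the WT control array, but the fibroblast sum was highest on the Bid-/- labelled control array and the sum over the set on WT LPS. The part of fibroblast RNA in the values of the 10 genes was not tested. In these bulk samples, fewer cells of a type and less RNA per cell cannot be told apart.

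Counts are given beside the background of all genes at the floor, and nothing is read from the LPS counts, because those values chose the genes. With LPS in WT, 2 of the 7 genes at the floor (Tagln and Ccn2) were at least 2-fold higher, against 2.39% of 11129 genes, and 0 were at least 2-fold lower against 2.08%. Of the 7, 7 were above 0 against 44.0% of genes and 0 below against 54.7%. Under the Bid-/- label, 1 of 7 (Pdgfrb) was at least 2-fold higher against 2.7% of 10995 genes, and 0 were lower against 1.65%. There 1 of 7 was above 0 against 38.6% of genes and 6 below against 60.1%, or 2 above and 5 below with an intensity trend removed. At a 1.5-fold threshold 5 of 7 were higher with LPS in WT, against 5.8% of genes.

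The difference of response is the LPS difference under the Bid-/- label minus that in WT. It was -2.09 for Tagln, -1.55 for Ccn2 and -1.39 for Acta2, so 3 of 7 were at least 2-fold lower, against 0.627% of 11326 genes, and 0 were at least 2-fold higher against 0.159%. In sign, 6 of 7 were below 0 against 49.1% of genes and 1 above against 49.4%. At 1.5-fold 5 of 7 were lower, against 6.06% of genes. Over all 10 genes the median LPS difference was 0.545 in WT and -0.23 under the Bid-/- label, while all genes at the floor had medians of -0.05 and -0.10, which read 0.011 and 0.014 once an intensity trend was removed. For the 7 at the floor the medians were 0.76 and -0.28. The median difference of response was -0.565 over the 10 and -0.75 over the 7, against 0.00 over all genes.

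The LPS difference was above 0 in WT and below 0 under the Bid-/- label for 7 of the 10 genes, or for 6 of the 7 at the floor, against 16.9% of 11326 genes. With an intensity trend removed the count at the floor was 5, since Myl9 passed to the other side of 0. WT LPS was the highest array for 6 of the 7, against 25.4% of genes. These 6 also read higher on the untreated Bid-/- labelled array than on the WT control array, a pair of conditions met by 9.8% of genes. Some margins were small. Tpm1 met the second condition by 0.03, which read -0.01 after quantile normalization. WT LPS lay above the next array by 0.09 for Ccn2 and 0.20 for Tpm2, both under the 0.213 yardstick. The difference of response stayed below 0 for 8 of the 10 genes, and above 0 for Pdgfrb (0.35) and Rgs5 (0.11), under each scaling tried.

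**Figure D2:**
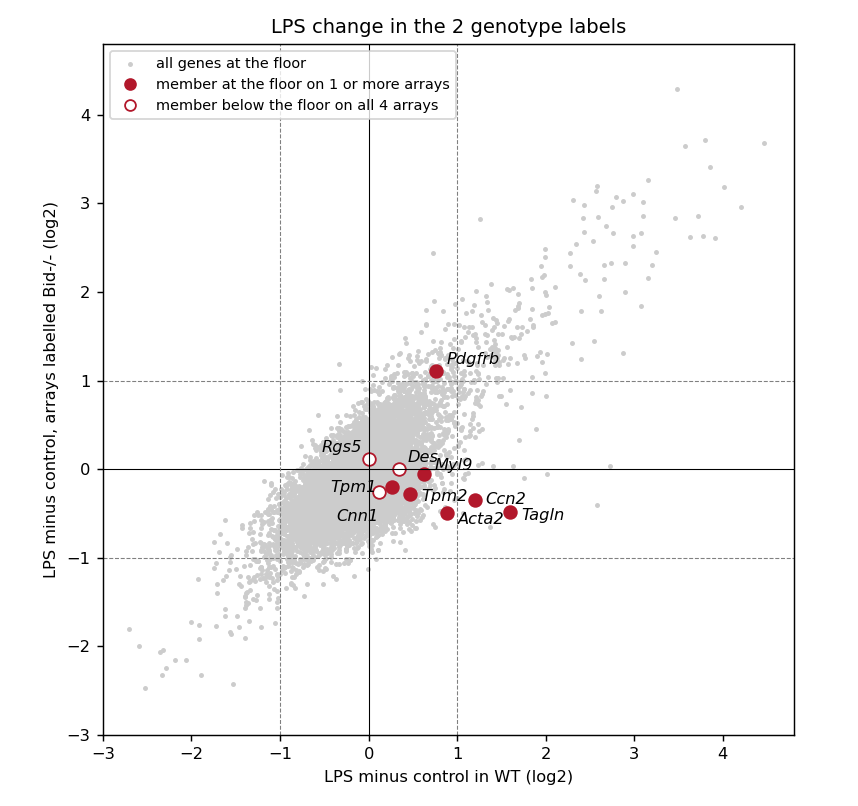
LPS minus control in WT (horizontal axis, log2) against the same difference on the arrays labelled Bid-/- (vertical axis, log2) for genes at the floor (grey) and the 10 genes (red; open where below the floor on all 4 arrays); dashed lines mark 2-fold, and Myl9 (-0.05 on the vertical axis) crosses 0 to 0.01 with an intensity trend removed. Tagln (1.60 and -0.49), Ccn2 (1.20 and -0.35) and Acta2 (0.89 and -0.50) lie at the lower right, and Pdgfrb (0.76 and 1.11) lies at the upper right.

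Between the labels without LPS, 1 of 7 genes (Ccn2) was at least 2-fold higher on the array labelled Bid-/-, against 0.358% of 10909 genes, and 0 were lower against 0.0733%. Of the 7, 7 were above 0 against 51.6% of genes and 0 below against 45.8%, or 6 above and 1 below after quantile normalization. At 1.5-fold 2 of 7 were higher, against 1.45% of genes. Tagln was 0.66 higher, Acta2 0.49, Myl9 0.38, Des 0.32, Tpm2 0.27, Cnn1 0.17 and Pdgfrb 0.17, while Tpm1 (0.03) and Rgs5 (-0.06) read nearly alike; Tpm1 turned to -0.01 after quantile normalization. With LPS, 1 of 7 (Tagln, -1.43) was at least 2-fold below WT under the Bid-/- label, against 0.489% of 11044 genes, and 0 were higher against 0.326%. In sign, 6 of 7 were below 0 against 47.8% of genes and 1 above against 50.9%. At 1.5-fold 2 of 7 were lower, against 6.07% of genes. Acta2 (-0.90), Tpm2 (-0.48), Ccn2 (-0.44), Tpm1 (-0.43), Myl9 (-0.29) and Cnn1 (-0.21) followed. Des (-0.02) turned to 0.02 after quantile normalization. Pdgfrb was 0.52 higher. The WT control array enters both the WT LPS change and the comparison without LPS. Every other array likewise enters 2 of these comparisons, so their values are not independent of each other. The opposite LPS differences that chose the genes come from the same arrays as these label comparisons. Nothing is therefore read from the label counts either.

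Relatives of these genes from the same families did not all share the values. Tagln2, the transgelin of many non-muscle cells, differed with LPS by 0.45 in WT and 0.07 under the Bid-/- label, and Tagln3 by 0.10 and 0.23. Cnn3, the acidic calponin of non-muscle cells, read 5.09, 5.63, 5.69 and 5.02, with LPS differences of 0.54 and -0.67. Cnn2 differed with LPS by 0.09 and -0.70. The tropomyosins Tpm3 (-0.27 and -0.13) and Tpm4 (0.43 and 0.41) had the same sign under both labels, unlike Tpm1 and Tpm2. In the CCN family, Ccn1 (CYR61), also a YAP target, read 6.05, 7.01, 7.41 and 7.06. Ccn1 was 1.36 higher on the untreated array labelled Bid-/- than on the WT control array, beside 1.11 for Ccn2. Ccn5 differed with LPS by 0.16 and 0.35, and Ccn3, Ccn4 and Ccn6 were below the floor on all 4 arrays.

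Pdgfb, the main ligand of the receptor encoded by Pdgfrb, read 5.29, 7.13, 5.24 and 6.28. Both LPS arrays were high, with LPS differences of 1.84 and 1.04, the same direction as Pdgfrb. Pdgfra, the receptor typical of fibroblasts, read 4.19, 4.48, 5.18 and 5.05 and so was higher on both arrays labelled Bid-/-. Pdgfa differed with LPS by -0.22 and -0.34. Of 20 RGS genes measured, 6 reached the floor and Rgs5 was not among them. Rgs1, an RGS gene of immune cells, differed with LPS by 3.16 and 2.16, Rgs2 by -1.16 and -1.19, and Rgs16 by 1.24 and 0.05, while Rgs3 (0.00 and -0.05, the latter 0.02 with an intensity trend removed) and Rgs19 (-0.37 and -0.47) differed less.

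**Figure D3:**
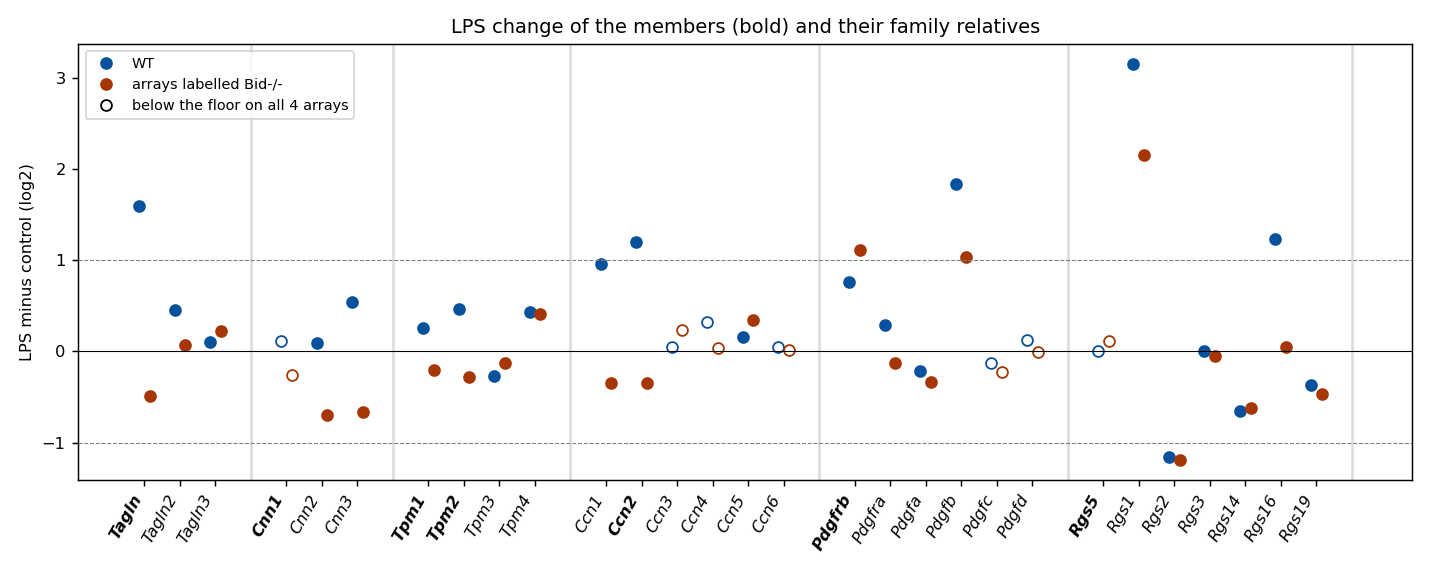
LPS minus control (vertical axis, log2) in WT (blue) and on the arrays labelled Bid-/- (brown) for the genes of the set (bold) and relatives of the same families (horizontal axis; for RGS genes, Rgs5 and those at the floor); open points are below the floor on all 4 arrays. Ccn1 (0.96 and -0.35) lies beside Ccn2 (1.20 and -0.35), while Tpm4 (0.43 and 0.41) and Pdgfb (1.84 and 1.04) are above 0 under both labels.

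Other contractile genes of smooth muscle were compared as a list of 34, of which 33 were measured and 24 reached the floor. In WT 1 of 24 was at least 2-fold higher with LPS, Pdlim7, an actin-associated LIM protein gene (1.24 and 0.74), and 0 were lower. Under the Bid-/- label 0 of 23 were 2-fold higher or lower. The list medians were 0.145 and 0.01. Besides Cnn3 and Cnn2, the genes with the largest difference of response among those at the floor were Hspb1, a small heat shock protein gene (0.50 and -0.43), and Cald1, caldesmon, a regulator of actin and myosin (0.57 and -0.05, the latter 0.06 after quantile normalization). Myh11, the smooth muscle myosin heavy chain that marks differentiated smooth muscle, read 4.31, 4.39, 4.26 and 4.27, close to the floor with no array apart. Actg2, smooth muscle gamma-actin, was below the floor on all 4 arrays (3.27 to 4.19), with LPS differences of 0.69 and -0.15. Pdlim7, Myh11 and Actg2 were named after their values were seen.

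Of the SRF, MRTF, YAP and TEAD pathway genes, 23 of 24 were measured and 18 reached the floor. With LPS 3 were at least 2-fold higher in WT and 2 under the Bid-/- label, with medians of 0.09 and 0.07. Egr1, an immediate early gene and SRF target (1.86 and 1.61), and Itga5, the fibronectin receptor subunit (1.31 and 1.63), were 2-fold higher under both labels. Wwtr1, which encodes the YAP relative TAZ, differed with LPS by 1.06 and 0.47, Tead2 by 0.16 and -0.35 and Tead4 by 0.53 and 0.09. Srf itself, named here after its values were seen, read 6.65, 7.51, 6.55 and 6.99. Actb, cytoplasmic beta-actin, named for the same reason, stayed between 12.36 and 12.43.

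Among TGF-beta response genes 15 of 20 reached the floor. With LPS 2 were at least 2-fold higher in WT (Id3 and Fn1) and 1 under the Bid-/- label (Id3), with list medians of -0.04 and -0.01. Id3, an inhibitor of bHLH factors, differed with LPS by 1.99 and 1.09. Bgn, the matrix proteoglycan biglycan, read 4.57, 5.50, 6.03 and 5.87, with the WT control array low as for Ccn2. Fn1, fibronectin, read 5.76, 6.94, 6.99 and 7.45. Tgfbi differed with LPS by -0.13 and -0.81.

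Pericyte and vascular mural cell genes gave the check of the mural label. Of 26 listed genes 25 were measured and 12 reached the floor, and 1 (Pdgfb) was at least 2-fold higher with LPS under each label. The list medians were 0.165 and 0.04. Ifitm1, an interferon-inducible membrane protein gene, differed with LPS by 0.89 and 0.03, and Kcnj8, a pericyte potassium channel gene, by 0.42 and 0.11. Of the 12 listed smooth muscle and pericyte markers, 6 are outside the set: Myh11, Cspg4, Kcnj8, Abcc9, Anpep and Notch3. Their mean was 4.23, 4.30, 4.24 and 4.30 in the order of arrays used above. These 6 differed with LPS by -0.26 to 0.42 in WT and by -0.30 to 0.29 under the Bid-/- label. Myh11, Anpep and Notch3 reached the floor on all 4 arrays and Kcnj8 on 2, while Cspg4 and Abcc9 were below it on all 4. The other 6 markers are members. Of these, Rgs5, Des and Cnn1 were below it on all 4 arrays as well, while Tagln, Acta2 and Pdgfrb reached it on all 4. The markers outside the set thus read at most 5.11 (Anpep), and their mean lay within 0.07 of the WT control array. Single markers varied more, by up to 0.49 (Anpep) and 0.42 (Kcnj8) over the 4 arrays. With several mural markers below the floor on all 4 arrays, a mural cell name was not given to the 10 genes. They are called by their leading genes Tagln, Acta2 and Ccn2.

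Of the other marker lists, the endothelial mean differed by at most 0.19 from the WT control array, the astrocyte mean by at most 0.17, the oligodendrocyte lineage mean by at most 0.09, the neuron mean by at most 0.12 and the skeletal and cardiac muscle mean by at most 0.14. Single markers differed more than these means. With LPS in WT, astrocyte markers ranged from -0.28 to 1.15 (Gja1) and oligodendrocyte lineage markers from -0.98 (Cnp) to 0.45. Under the Bid-/- label the ranges were -0.42 to 0.51 (Gja1) and -0.88 (Cnp) to 0.42. The microglial mean lay below the WT control array on WT LPS (-0.35) and on the Bid-/- labelled LPS array (-0.55). Among the muscle markers, Acta1, skeletal alpha-actin, read 4.96, 5.28, 4.97 and 4.92, and it is a close paralog of Acta2; sharing of signal between their probes was not tested.

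**Figure D4:**
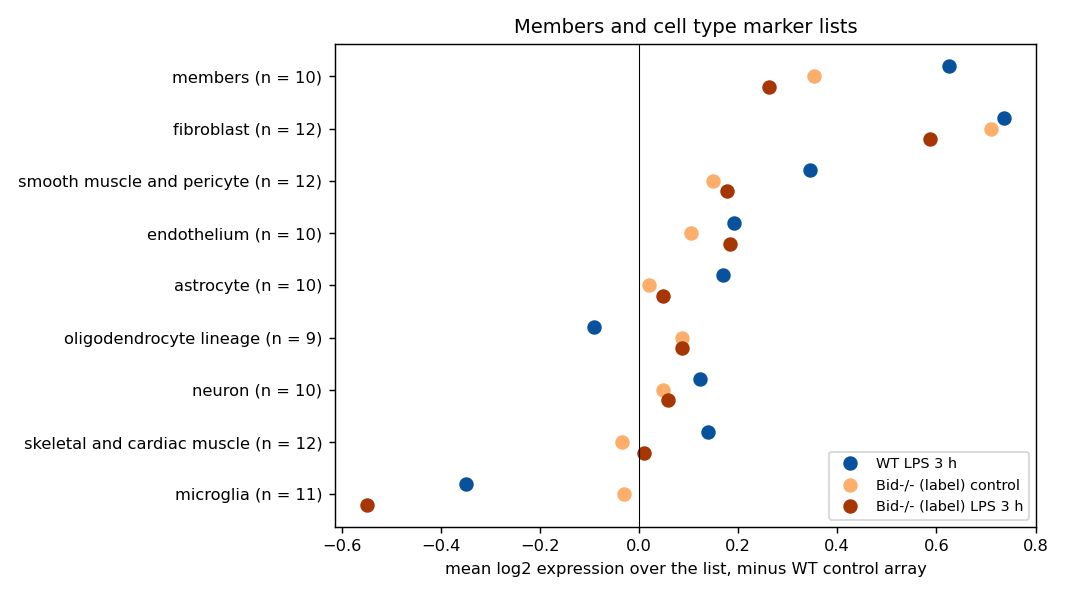
Mean log2 expression over each list, minus its mean on the WT control array (horizontal axis), for the 10 genes and 8 cell type marker lists (vertical axis); each point is 1 array, and n is the number of genes measured. The fibroblast list lies 0.74, 0.71 and 0.59 above the WT control array on the WT LPS, Bid-/- labelled control and Bid-/- labelled LPS arrays, and the 10 genes lie 0.63, 0.35 and 0.26 above; 6 of the 12 smooth muscle and pericyte markers are also in the set.

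The genes most like Tagln over the 4 arrays were found by Euclidean distance between profiles centred on their own mean, among 11326 genes at the floor. The 5 nearest were Igfbp6 (distance 0.470), which encodes an IGF-binding protein, Sfrp4 (0.471), a secreted Wnt antagonist, the RNA component gene Rmrp (0.493), the small nucleolar RNA gene Rnu3a (0.499) and S100a6 (0.499), a calcium-binding protein gene. Igfbp6 read 3.74, 5.14, 4.28 and 4.32, and Sfrp4 read 2.65, 4.41, 2.83 and 2.73. All 5 had their highest value on WT LPS, which the choice by likeness to Tagln largely fixed. An LPS difference below 0 under the Bid-/- label held for 4 of them, the exception being Igfbp6 (0.04). Sfrp4 and Rnu3a reached the floor on the WT LPS array only. Their differences under the Bid-/- label (-0.10 and -0.06) thus compare values below the floor. Rmrp (-0.11) came to 0.00 with an intensity trend removed. Sfrp4 is also among the fibroblast markers. The 5 nearest to Ccn2 were Tm4sf1 (0.142), a membrane protein gene, Apod (0.227), apolipoprotein D, Igfbp7 (0.228), Rgs16 (0.285) and Akap12 (0.298), a kinase-anchoring protein gene. Tm4sf1 read 5.65, 6.65, 6.66 and 6.33, so its WT LPS and Bid-/- labelled control arrays were level, as for Ccn2. With 4 points such a distance describes these arrays and no more.

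**Figure D5:**
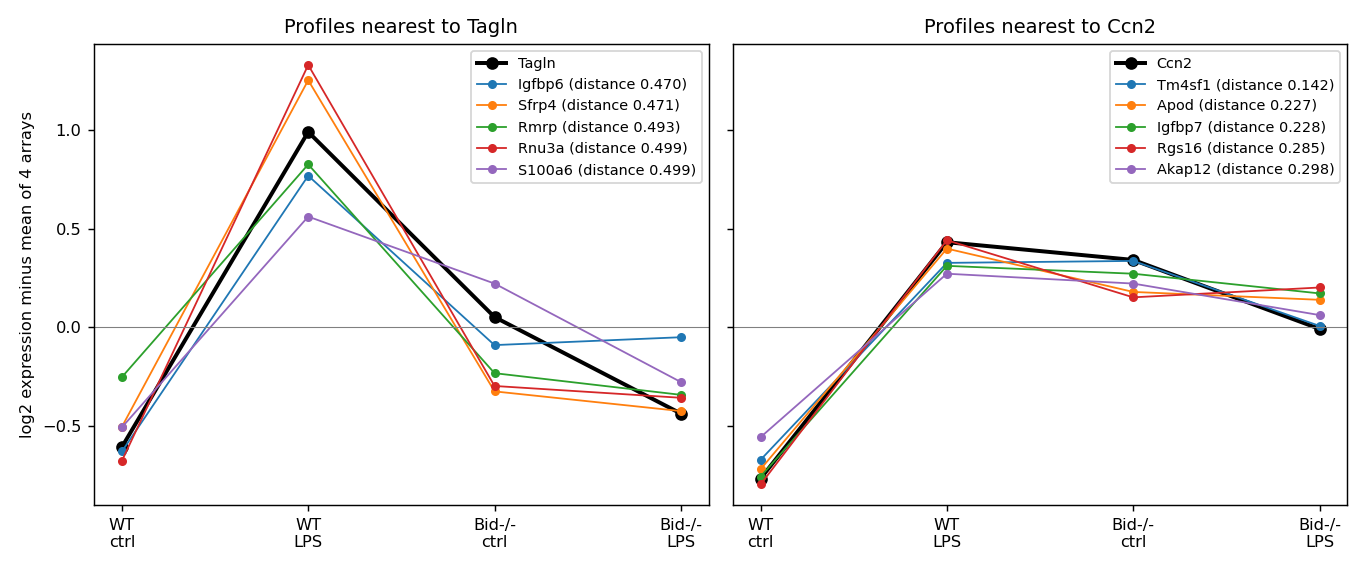
Log2 expression minus the mean of the 4 arrays (vertical axis) on each array (horizontal axis) for Tagln (left, black) and Ccn2 (right, black) with the 5 nearest genes by Euclidean distance in colour. Tagln has 1 high array, WT LPS, while S100a6 in its panel is also high on the Bid-/- labelled control array (5.20, against 5.54 on WT LPS, before centring). In the Ccn2 panel the WT control array is low and the other 3 arrays lie together.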

How the data were processed

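The authors deposited 1 table of log2 expression for 28944 probe sets on 4 arrays, 1 per group; per the submitters' processing notes, the tools were RMA, Partek 6.2 and Affymetrix Expression Console, whose order is not stated. RMA equalizes array distributions, so a difference common to all genes cannot be seen. Probe sets were named from the platform annotation: 21789 name 1 gene, 1621 several and 5534 none. The probe set with the highest mean was used per gene (19938 genes), and the Entrez identifiers of all 10 members matched RefSeq GRCm38.p6 with the same symbol. Differences, medians and counts of at least 2-fold among genes at the floor were computed in Python 3.11.15 with pandas 2.3.3; loess trends (span 0.3) used statsmodels 0.14.6. The differences, the 2-fold count in WT and the removal of an intensity trend were run on simulated data. The planted changes there were large against the noise, so this checks the code and not the precision. The other steps were not simulated. Members and gene lists were chosen with earlier results of these data known. Named genes are the 10 members, the 5 nearest to Tagln and to Ccn2, up to 4 per list by difference of response, and list genes 2-fold under both labels; other genes (family relatives, cell type markers, Pdlim7, Actg2, Srf and Actb) were named after their values were seen. Alternatives were the floor, quantile normalization, trend removal, averaged probe sets and a 1.5-fold threshold. The number of arrays limits the precision.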

Additional observations from a re-analysis of the deposited data

Results flagged for a closer look

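The LPS difference had opposite signs under the 2 genotype labels for 7 of the 10 genes, of which Cnn1 was below the floor on all 4 arrays. The difference of response was -2.09 for Tagln, -1.55 for Ccn2, -1.39 for Acta2, -0.75 for Tpm2, -0.67 for Myl9, -0.46 for Tpm1 and -0.38 for Cnn1. With 1 array per group these differences were not tested. Among the relatives and pathway genes the same held for Ccn1 (-1.31), Cnn3 (-1.21), Bgn (-1.09), Hspb1 (-0.93), Cnn2 (-0.79), Cald1 (-0.62), Tead2 (-0.51) and Pdgfra (-0.42), again untested. These genes were named for the largest differences of response in their lists, which favours opposite signs. Genes at the floor above 0 in WT and below 0 under the Bid-/- label were counted over each whole list. They were 9 of 24 other contractile, 4 of 12 pericyte and mural, and 2 of 3 CCN family genes. There were also 3 of 18 SRF, MRTF, YAP and TEAD, 1 of 15 TGF-beta response, 0 of 6 RGS and 1 of 4 PDGF genes. The share of all genes was 16.9%. Opposite signs also held for some genes named for their likeness to Tagln or Ccn2, and that likeness fixes this sign in part. These were Rnu3a (-2.07), Sfrp4 (-1.86), S100a6 (-1.57), Tm4sf1 (-1.33), Rmrp (-1.19), Igfbp7 (-1.17), Apod (-1.16) and Akap12 (-0.99). Rnu3a and Sfrp4 reached the floor on the WT LPS array only. Under the Bid-/- label the LPS difference turned above 0 with an intensity trend removed for Myl9 (0.01), Cald1 (0.09), Bgn (0.02), Apod (0.12) and Igfbp7 (0.05). It came to 0.00 for Rmrp and Akap12 and moved from -0.20 to -0.03 for Tpm1.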

How the results depend on the processing

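Quantile normalization, removal of an intensity trend, averaged probe sets, and removal of intensity and gene span trends (chosen after seeing the data) left the counts past 2-fold and the medians over the members within 1.5 times or 0.213 of their values; counts by sign shifted, with 2 in place of 1 of 7 above 0 under the Bid-/- label with LPS (either trend removal), and 1 in place of 0 of 7 below 0 without LPS (quantile normalization). With 1.5-fold as the threshold, 5 members were higher with LPS in WT (5.8% of all genes at the floor), 2 higher without LPS (1.45%) and 2 lower with LPS (6.07%) on the array labelled Bid-/-, and 5 had a lower difference of response (6.06%). Without a floor the median WT change was 0.545; with a floor 1 log2 unit higher it was 1.045 and the median difference of response -1.39, since fewer genes remained. Signal near the floor limits Cnn1, Des, Rgs5 and Tpm2. No paired analysis was possible because each group has 1 array.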
